A study of Homo sapiens with 58 samples.

Results

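The 4 genes described here, SLC7A1, SLC7A5, SLC3A2 and SLC38A2, encode 3 carriers that bring amino acids across the plasma membrane and the heavy chain, SLC3A2, that pairs with one of them. Their members are all peaks that the deposited peak table of an HuR crosslinking study assigns to these gene symbols: 63 of 387214 peaks, with 11 in SLC7A1, 13 in SLC7A5, 16 in SLC3A2 and 23 in SLC38A2. Huh-7.5, an established line from a human liver cancer (hepatocellular carcinoma), was irradiated to crosslink HuR (encoded by ELAVL1) to RNA, with UV at 254 nm and doses of 400 and 200 mJ/cm2, and the RNA that came down with the HuR antibody 3A2 was sequenced (CLIP-seq). Cells were mock treated or kept in 0.5 mM sodium arsenite, which induces oxidative stress and stress granules, for 45 min. The first set of libraries comes from unmodified (WT) cells split into nuclear and cytoplasmic fractions, with 3 libraries for each fraction and treatment and no APEX reaction. In the remaining libraries the cells express APEX, an engineered peroxidase that tags proteins around it with biotin, as 3 versions: nuclear (APEX-NLS), cytoplasmic (APEX-NES) or fused to the stress granule protein G3BP1 (APEX-G3BP1). In these lines, mock cells included, 0.5 mM biotin phenol was given for 30 min and 1 mM hydrogen peroxide for 1 min, and the labels do not say whether a line is 1 clone or which promoter drives APEX. A streptavidin capture added to the HuR immunoprecipitation gave the enriched libraries, and HuR immunoprecipitation alone gave the input libraries. APEX-NLS and APEX-NES each have 2 input and 4 enriched libraries per treatment. For APEX-G3BP1 there are 4 input and 6 enriched libraries of mock cells and 5 input and 7 enriched of arsenite cells.

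HuR binds U- and AU-rich stretches of RNA, mainly in 3′ untranslated regions (3′UTRs) and introns, and is known for stabilising mRNAs and for moving between nucleus and cytoplasm. SLC7A1 encodes CAT-1, the carrier of arginine and lysine, and its mRNA is a textbook target of miR-122, the abundant microRNA of hepatocytes: in Huh-7 cells under stress, HuR is known to relieve that repression. SLC7A5 (LAT1) exchanges large neutral amino acids and is held at the membrane by SLC3A2 (4F2hc), and SLC38A2 (SNAT2) takes up small neutral amino acids with sodium and is known to be induced when amino acids run short. The mature miR-122 sequence is shown because this is the microRNA that HuR is known to counter on SLC7A1, with its seed (bases 2 to 8) in capitals. It lies at chr18:58451088-58451109 on the plus strand of GRCh38.p14, as given by RefSeq.
hsa-miR-122-5p: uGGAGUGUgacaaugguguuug
An mRNA site that pairs with the whole seed reads ACACUCC. Whether any peak holds it was not analysed here, since no genome sequence was used.

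Values are tags in a peak, or summed over peaks, per 1000000 of the library total (CPM). The fraction libraries had totals of 686263 to 1759090 tags, of which 235471 to 673322 lay in peaks. The input libraries had 1353 to 484305 tags in peaks and the enriched libraries 519 to 86419, and 16 of the 58 libraries had fewer than 10000, so most precision comes from the fractions. The labels carry a JL prefix that they do not define. It was taken here as the library set and used as a batch, a reading on which the set covariate and each value within a set rest: all fraction libraries are in set JL0380, and the APEX lines are spread over JL0361 (APEX-G3BP1 only), JL0388 and JL1024. In 5 of 32 replicate pairs, all enriched libraries of JL0388, a chi-square test found no difference beyond sampling noise (permutation p 0.062 to 0.794, chi-square per degree of freedom 0.976 to 1.09). These pairs may be the same material sequenced again, so enriched groups are given by their lowest, median and highest library and tests were repeated with each pair counted as 1 sample. As a check of the cell type, 8 of 10 hepatocyte markers had peaks, among them ALB and AFP, while of the markers of other cells 1 of 5 immune, 2 of 3 endothelial, 1 of 4 fibroblast and 0 of 2 cholangiocyte genes did. The summed level of the immune markers was 0 to 5.46 CPM in the fraction libraries, and CD3E, CD68 and CD14 were at 0. In mock cells the spliced mRNA ACTB and the cytoplasmic RNA NORAD were lower in the nuclear fraction (log2 difference -3.23 ± 0.13 and -2.23 ± 0.17, SE) and the nuclear RNAs GAS5, SNHG1 and NEAT1 were higher (3.35, 3.52 and 1.71), all past the threshold, while the nuclear RNA MALAT1 was not called (0.10).

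By the RefSeq annotation of GRCh38.p14, SLC7A1 (ENSG00000139514) lies at chr13:29509414-29595688, SLC7A5 (ENSG00000103257) at chr16:87830023-87869507 and SLC38A2 (ENSG00000134294) at chr12:46358188-46372773, all on the minus strand, and SLC3A2 (ENSG00000168003) at chr11:62856109-62888860 on the plus strand. Peak positions are those of the deposited table, which does not say whether starts count from 0 or 1, and 63 of the 63 peaks lie inside these genes. By the annotation classes of the table, most tags of 3 of the genes lay in 3′UTRs. In the 12 fraction libraries, SLC7A1 had 139 tags, 68.3% of them in its 5 3′UTR peaks and 31.7% in 6 intron peaks. SLC7A5 had 382 tags, 73.8% in 5 3′UTR peaks and 26.2% in 8 intron peaks. SLC38A2 had 6426 tags, 87.7% in 9 3′UTR peaks, 7.53% in 2 5′UTR peaks and 4.78% in 12 intron peaks. Of the 165 tags of SLC3A2, 17.6% lay in a single 3′UTR peak, 27.3% in 2 coding (CDS) peaks, 48.5% in 12 peaks of retained introns, which the table groups as introns, and 6.67% in a peak within a transposable element (TE). In the input libraries SLC3A2 had 33 tags, 48.5% of them in the 3′UTR, 15.2% in CDS and 36.4% in intron peaks. Over all named and unnamed peaks, 24.6% of fraction tags lay in 3′UTR and 43.7% in intron peaks. No peak of SLC7A1, SLC7A5 or SLC3A2 was annotated as 5′UTR.

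Summed over each gene, SLC38A2 and SLC7A5 carried more HuR tags per library total in the cytoplasmic than in the nuclear fraction of mock cells. After arsenite the level of SLC38A2 per library total fell in the cytoplasm and rose in the nucleus. The cytoplasmic level of SLC7A5 was also called lower, a call lost when any of 5 of the 6 libraries was left out, and its tags themselves numbered 32, 44 and 38 in mock and 31, 45 and 44 in arsenite libraries. No gene-level difference of SLC7A1 or SLC3A2 passed the test. Each comparison was fitted with limma across all genes and called at an adjusted p under 0.05. In mock cells 2 of the 4 genes were lower in the nuclear than in the cytoplasmic fraction, where 18.3% of all genes tested were lower and 13.8% higher. After arsenite 1 of 4 was lower, against 5.51% of all genes. Between arsenite and mock, 2 of 4 were lower in the cytoplasmic fraction, against 9.91% of all genes, and 1 of 4 was higher in the nuclear fraction, against 5.57%. With 4 genes these shares are a description. The labels do not say whether replicates are separate cultures, so p-values measure the spread between these libraries. In bulk CLIP, more HuR per RNA molecule, more RNA in a fraction and fewer cells or less RNA per cell cannot be told apart.

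**Figure D1:**
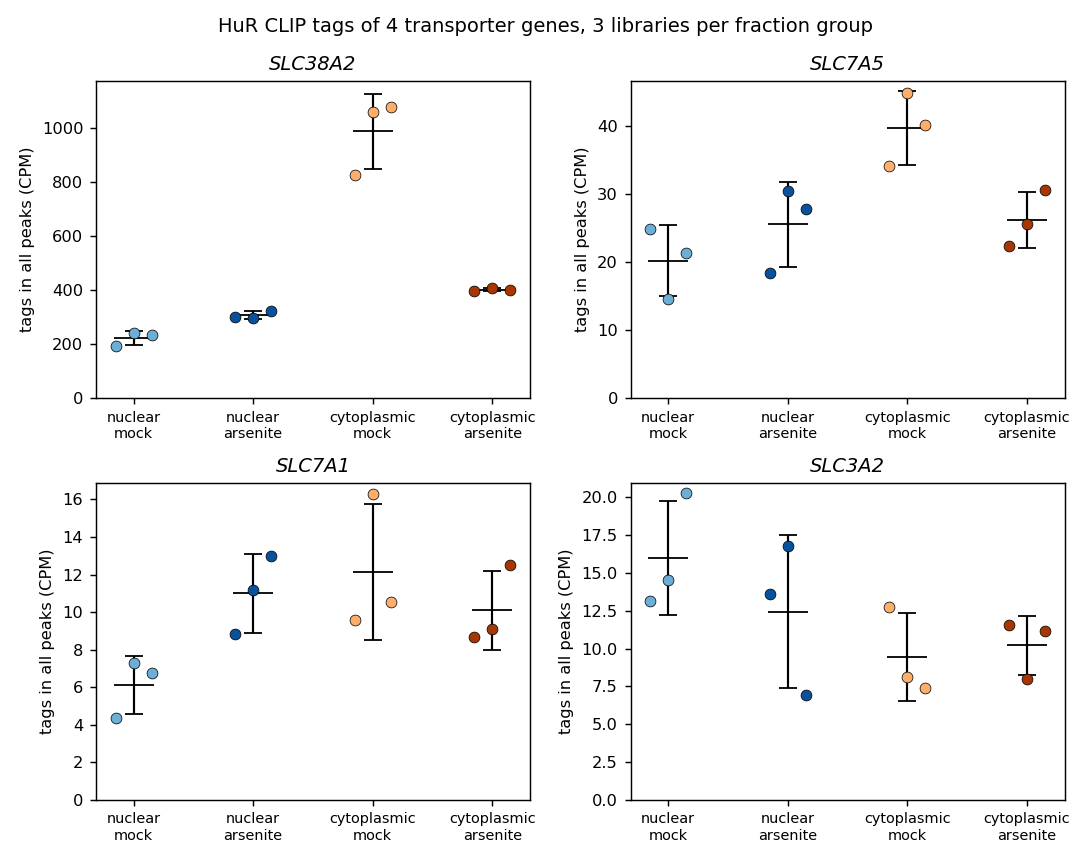
Tags summed over all peaks of each gene (CPM, linear axes from 0) in the 12 fraction libraries. Points are libraries, the long line is the mean and the bars are the SD (n = 3 per group); the 3 cytoplasmic mock libraries of SLC38A2 (824 to 1076 CPM) lie above all 9 others, while for SLC3A2 the mock and arsenite libraries of each fraction overlap.

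SLC7A1 is the arginine carrier under miR-122 control. Its gene sums were 4.37, 7.27 and 6.76 CPM in the nuclear mock libraries, 8.81, 11.2 and 13.0 in nuclear arsenite, 9.57, 16.3 and 10.5 in cytoplasmic mock and 8.66, 9.10 and 12.5 in cytoplasmic arsenite. These values rest on 3 to 18 tags per library. The mock nuclear libraries were thus the lowest group and did not overlap with any of the other groups. The differences stayed short of the threshold: nuclear minus cytoplasmic in mock cells was -0.77 ± 0.33 (log2, SE; limma adjusted p = 0.091), arsenite minus mock was 0.66 ± 0.31 in the nuclear fraction (adjusted p = 0.23) and -0.21 ± 0.28 in the cytoplasmic fraction (adjusted p = 0.67, 95% interval -0.80 to 0.39). After arsenite the fractions differed by 0.10 ± 0.26 (adjusted p = 0.88).

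Split by class, the 3′UTR tags of SLC7A1 were lower in the nuclear than in the cytoplasmic fraction of mock cells. They measured 2.91, 5.46 and 2.90 CPM in nuclear mock libraries and 9.57, 15.3 and 7.38 in cytoplasmic mock libraries, a ratio of means of 2.86, and the groups did not overlap. The log2 difference was -1.09 ± 0.35 (limma adjusted p = 0.029), a call that was lost without nuclear mock replicate 1 (adjusted p = 0.107) or 3 (0.0978) and without cytoplasmic mock replicate 1 (0.0791) or 2 (0.126). With arsenite the 3′UTR values were 6.41, 8.80 and 6.93 CPM in the nuclear and 4.33, 5.68 and 6.96 in the cytoplasmic fraction, so the fractions overlapped. Both changes with arsenite were without overlap but not called: 0.70 ± 0.32 in the nucleus (adjusted p = 0.23) and -0.68 ± 0.30 in the cytoplasm (adjusted p = 0.15). The change with arsenite differed between the fractions, by 1.38 ± 0.46 (interaction term, adjusted p = 0.037). That call was lost with a pseudocount 4 times smaller (1.74, adjusted p = 0.0515), with edgeR on the authors' totals (1.82, adjusted p = 0.0516) and when any of 8 of the 12 libraries was left out, as listed with the other interaction calls.

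The intron tags of SLC7A1 went the other way in the cytoplasm without passing the test. They were 0, 1.02 and 3.16 CPM in cytoplasmic mock and 4.33, 3.41 and 5.56 in cytoplasmic arsenite libraries (log2 difference 0.95 ± 0.38, adjusted p = 0.11). The 3′UTR share of its cytoplasmic tags was 87.9% ± 15.8 (SD, n = 3) in mock and 56.0% ± 6.26 in arsenite libraries, without overlap. The two-sided exact permutation test gave p = 0.1, the smallest that 3 against 3 libraries allow, and over the 16 comparisons of 3′UTR shares made for the 4 genes the smallest adjusted p was 0.229. In the nuclear fraction the shares were 61.5% ± 16.7 and 68.2% ± 13.2 and overlapped. The intron peak with the most SLC7A1 tags, chr13:29528908-29528928, had 1 tag in nuclear mock, 5 in nuclear arsenite, 1 in cytoplasmic mock and 10 in cytoplasmic arsenite libraries, each summed over 3 libraries.

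Within its 3′UTR, SLC7A1 has a pair of peaks near the proximal end, chr13:29512537-29512557 and chr13:29512423-29512443, and a cluster close to the gene end that includes chr13:29509583-29509603, 179 nt from the RefSeq end of the gene. The first, its highest 3′UTR peak, held 2, 0 and 2 tags in nuclear mock, 4, 6 and 3 in nuclear arsenite, 5, 2 and 3 in cytoplasmic mock and 1, 2 and 3 in cytoplasmic arsenite libraries. The peak nearest the end had 0 tags in every nuclear mock library, where 3 tags over the group would be 1.06 CPM, and 2, 2 and 3 in nuclear arsenite. None of the SLC7A1 peaks passed a peak-level test, and at 0 to 8 tags per library in these peaks only large differences could have been detected.

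SLC7A5, the exchange subunit of LAT1, was lower in the nuclear than in the cytoplasmic fraction of mock cells. Its gene sums were 24.8, 14.5 and 21.2 CPM in nuclear mock and 34.0, 44.8 and 40.1 in cytoplasmic mock libraries, a ratio of 1.96 with no overlap (nuclear minus cytoplasmic -0.92 ± 0.22, adjusted p = 0.0055). Without cytoplasmic mock replicate 2 the adjusted p was 0.0707. After arsenite the cytoplasmic libraries measured 22.4, 25.6 and 30.6 CPM, all below the mock libraries (-0.56 ± 0.19, adjusted p = 0.043). This call was lost without any of 5 of the 6 libraries, namely cytoplasmic mock replicates 2 and 3 and all 3 arsenite replicates (adjusted p = 0.155, 0.103, 0.172, 0.145 and 0.0696). Nuclear arsenite libraries measured 18.4, 30.4 and 27.7 CPM and overlapped with nuclear mock (0.31 ± 0.24, adjusted p = 0.51). After arsenite the fractions differed by -0.05 ± 0.20 (adjusted p = 0.92).

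The fraction difference of SLC7A5 was found in its 3′UTR. Nuclear mock libraries had 11.7, 9.09 and 7.72 CPM there and cytoplasmic mock libraries 24.5, 39.7 and 32.7, a ratio of 3.40 (-1.54 ± 0.26, adjusted p = 0.00052). Its intron sums did not pass in any fraction comparison, and the highest intron peak, chr16:87865173-87865193, held 2 to 7 tags per library. Arsenite libraries had 10.4, 24.8 and 20.8 CPM in the nuclear and 19.5, 18.2 and 25.0 in the cytoplasmic 3′UTR, so the fractions overlapped (-0.21, not called). The 3′UTR share of SLC7A5 tags was 48.6% ± 13.1 in nuclear and 80.7% ± 8.42 in cytoplasmic mock libraries, without overlap, and 71.0% ± 13.0 and 80.0% ± 8.15 after arsenite.

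Most of the SLC7A5 3′UTR signal sat in peaks at either end. At chr16:87832651-87832671 the libraries held 4, 3 and 6 tags in nuclear mock, 12, 20 and 15 in cytoplasmic mock, 4, 7 and 6 in nuclear arsenite and 12, 9 and 10 in cytoplasmic arsenite. This was the only SLC7A5 peak called in the mock fractions (-1.41 ± 0.32, adjusted p = 0.0487), and the call was lost when any of the 6 libraries was left out (adjusted p 0.0701 to 0.18), with the smaller pseudocount (0.058), with the replicate number as a block (0.0759) and with TMM (0.0694). The other peak, chr16:87830032-87830052, has its midpoint 19 nt from the end of the gene and held 2, 6 and 1 tags in nuclear mock and 5, 16 and 13 in nuclear arsenite libraries. In the cytoplasm it held 8, 13 and 13 tags in mock and 15, 15 and 25 in arsenite libraries, and its log2 difference there was 0.02 ± 0.31. At the first peak the cytoplasmic mean was 16.3 CPM in mock and 6.91 in arsenite libraries without overlap, but the difference was not called (-1.01 ± 0.28, adjusted p = 0.088).

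SLC3A2, the heavy chain that carries LAT1 to the membrane, had no call in the fractions. Its gene sums were 13.1, 14.5 and 20.3 CPM in nuclear mock, 12.8, 8.15 and 7.38 in cytoplasmic mock, 13.6, 16.8 and 6.93 in nuclear arsenite and 11.6, 7.96 and 11.1 in cytoplasmic arsenite libraries. The nuclear mock libraries lay just above the cytoplasmic ones (0.65 ± 0.30, adjusted p = 0.11), and within each fraction the arsenite libraries overlapped with the mock libraries. No sum or peak of SLC3A2 passed in any fraction comparison. Its 3′UTR peak, chr11:62888758-62888778, held 2, 2 and 3 tags in nuclear mock, 3, 4 and 3 in cytoplasmic mock, 4, 2 and 0 in nuclear arsenite and 2, 2 and 2 in cytoplasmic arsenite libraries. The 3′UTR share of cytoplasmic tags was 39.3% ± 12.9 in mock and 13.1% ± 1.03 in arsenite libraries, without overlap (exact permutation p = 0.1, again the smallest possible), on 27 and 46 tags. Pooled over the input libraries the share went the other way, 27.3% of 11 tags in mock and 59.1% of 22 in arsenite libraries. In enriched libraries it was 0 of 4 and 3 of 6 tags. The CDS peak chr11:62882663-62882683 varied most between replicates, with 0, 9 and 1 tags in the nuclear arsenite libraries. The highest intron peak, chr11:62886427-62886447, held 0 to 4 tags per library.

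SLC38A2, the sodium-coupled carrier SNAT2, had enough tags for its peaks to be followed singly. Its gene sums were 192, 239 and 233 CPM in nuclear mock, 301, 296 and 323 in nuclear arsenite, 824, 1056 and 1076 in cytoplasmic mock and 397, 405 and 401 in cytoplasmic arsenite libraries. No pair of these 4 groups overlapped. The cytoplasmic level exceeded the nuclear by 4.45 times in mock cells (-2.14 ± 0.13, adjusted p = 1.24e-08) and by 1.31 times after arsenite (-0.39 ± 0.08, adjusted p = 0.0014). With arsenite the cytoplasmic level fell 2.46 times (-1.28 ± 0.12, adjusted p = 3.53e-06) while the nuclear level rose (0.47 ± 0.09, adjusted p = 0.0025). Without cytoplasmic arsenite replicate 2 the arsenite difference between fractions had an adjusted p of 0.058, and without nuclear arsenite replicate 3 the nuclear rise had 0.131.

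The classes of SLC38A2 changed in different directions. Its 3′UTR sum was 178 ± 14.8 CPM (SD, n = 3) in nuclear mock, 242 ± 17.4 in nuclear arsenite, 948 ± 135 in cytoplasmic mock and 331 ± 7.61 in cytoplasmic arsenite libraries. Its intron sum rose in the cytoplasm with arsenite, from 12.5 ± 0.29 to 32.5 ± 0.82 CPM (1.23 ± 0.20, adjusted p = 0.00092; 6.7% of all gene and class sums were higher), as the 3′UTR sum fell (-1.50 ± 0.14). The highest intron peak, chr12:46368365-46368385, held 2, 1 and 5 tags in cytoplasmic mock and 11, 27 and 19 in cytoplasmic arsenite libraries (1.56 ± 0.36, adjusted p = 0.068). The main 5′UTR peak, chr12:46372551-46372571, has its midpoint 212 nt from the gene start and held 16, 31 and 32 tags in nuclear mock, 55, 56 and 46 in nuclear arsenite, 18, 22 and 30 in cytoplasmic mock and 55, 59 and 57 in cytoplasmic arsenite libraries. It holds most of the 5′UTR tags. The 5′UTR sum was 24.7 ± 6.35 CPM in cytoplasmic mock and 37.9 ± 3.76 in cytoplasmic arsenite, and 28.4 ± 5.24 and 43.4 ± 2.49 in the nucleus. Neither 5′UTR difference passed (0.59 ± 0.21, adjusted p = 0.077, and 0.59 ± 0.18, adjusted p = 0.065), although the groups did not overlap in either fraction. With a stricter filter on low values, a mean of at least 5 pseudocounts, both were called (adjusted p = 0.019 and 0.0163). The nuclear 3′UTR rise (0.44 ± 0.10, adjusted p = 0.014) was lost without nuclear mock replicate 1 (0.1) or any of the nuclear arsenite replicates (0.0886, 0.0779 and 0.119), and the arsenite difference between fractions (-0.45 ± 0.09, adjusted p = 0.0015) without cytoplasmic arsenite replicate 2 (0.111).

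**Figure D2:**
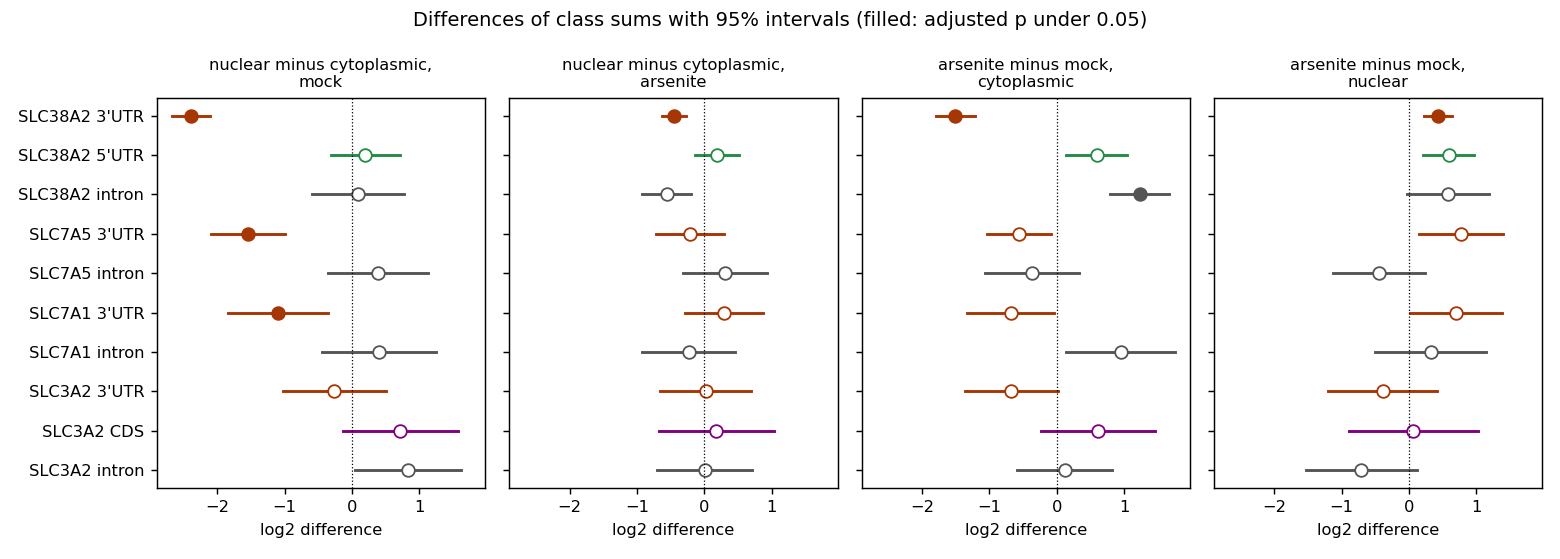
Log2 differences of class sums (points) with 95% intervals (lines) from limma in 4 comparisons of the fraction libraries, n = 3 per group; filled points passed an adjusted p under 0.05. In mock cells the 3′UTR sums of SLC38A2, SLC7A5 and SLC7A1 are lower in the nuclear fraction, and after arsenite the cytoplasmic 3′UTR sum of SLC38A2 is lower while its intron sum is higher.

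The 3′UTR calls are read here against all genes. In mock cells 3 of the 4 3′UTR sums were lower in the nuclear fraction, where 49.4% of the 3′UTR sums of all genes were lower and their median log2 difference was -0.98. After arsenite 1 of 4 was lower (9.89% of all). For arsenite against mock, 1 of 4 was lower in the cytoplasm (18.6% of all, median -0.30) and 1 of 4 higher in the nucleus (13.8% of all, median 0.39). Markers of the cytoplasm moved too: with arsenite ACTB fell in the cytoplasmic fraction (-1.19) and rose in the nuclear fraction (0.97), and NORAD rose in the nuclear fraction (2.06) and was not called in the cytoplasmic one (-0.32). The summed level of both was 269 to 286 CPM in nuclear mock and 567 to 647 in nuclear arsenite libraries, and 1981 to 2847 in cytoplasmic mock and 1041 to 1272 in cytoplasmic arsenite libraries. The 4 nuclear RNA markers moved both ways. GAS5 fell in the cytoplasmic (-1.64) and the nuclear fraction (-1.29), NEAT1 rose in both (0.87 and 0.37), SNHG1 fell in the nuclear fraction (-1.05) and was not called in the cytoplasmic one (-0.20), and MALAT1 was called in neither (0.24 and 0.18). Their summed level was 3801 to 4052 CPM in nuclear mock and 3521 to 4332 in nuclear arsenite libraries, and 2351 to 2937 in cytoplasmic mock and 2646 to 3638 in cytoplasmic arsenite libraries, overlapping in both fractions. The part of these markers in the values of SLC38A2, SLC7A5 and SLC7A1 was not tested.

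The 3′UTR signal of SLC38A2 sat mainly in 2 peaks that lie 1849 nt apart. The proximal peak, chr12:46360919-46360939, held 41.0% of its 3′UTR tags in the fractions, and the distal peak, chr12:46359070-46359090, whose midpoint lies 892 nt from the gene end, held 44.3%. The proximal peak measured 87.4, 99.1 and 100 CPM in nuclear mock and 91.3, 83.2 and 87.5 in nuclear arsenite libraries. In the cytoplasm it went from 355, 465 and 492 CPM in mock to 99.6, 98.9 and 104 in arsenite libraries. After arsenite its nuclear and cytoplasmic levels were thus within 83.2 to 104 CPM. The distal peak measured 56.8, 54.6 and 56.0 CPM in nuclear mock and 119, 110 and 141 in nuclear arsenite libraries. In the cytoplasm it went from 315, 393 and 371 to 183, 189 and 188 CPM. It was higher after arsenite in the nucleus and remained above its nuclear level in the cytoplasm.

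**Figure D3:**
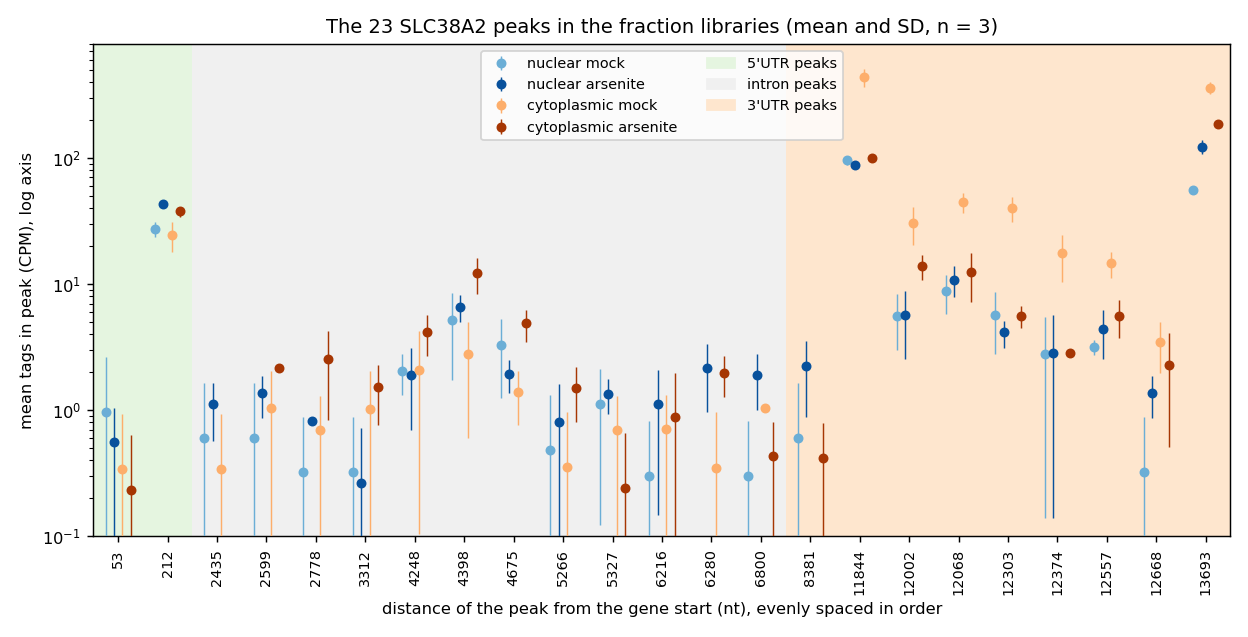
Mean CPM with SD (n = 3; log axis, means of 0 not drawn) of the 23 SLC38A2 peaks in the 4 fraction groups, ordered by distance from the gene start in nt. The 2 peaks at 11844 and 13693 nt carry most tags; at the first the nuclear mock, nuclear arsenite and cytoplasmic arsenite means lie close together, and at the last the nuclear mock mean is the lowest of the 4.

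At the peak level, 8 of the 38 member peaks tested were lower in the nuclear than in the cytoplasmic fraction of mock cells, against 2.29% of all peaks tested. Of these, 7 were 3′UTR peaks of SLC38A2, which had rank 35 of 13836 genes by fraction tags. Of all peaks 55.5% lay in introns, so the share over all peaks, here and below, is not one over peaks of like class and depth. The differences were largest at the distal peak (-2.63 ± 0.14, adjusted p = 3.85e-05), at chr12:46360460-46360480 (-2.46 ± 0.33, adjusted p = 0.0043) and at the proximal peak (-2.16 ± 0.15, adjusted p = 0.00014). The count was 2, 3, 2, 0 and 2 without nuclear mock replicate 2, nuclear mock replicate 3 and cytoplasmic mock replicates 1, 2 and 3. At the distal and proximal peaks the call was lost without cytoplasmic mock replicate 2 alone (adjusted p = 0.0753 for both). After arsenite 1 of 49 was lower, the distal peak (-0.60 ± 0.11, adjusted p = 0.026; 0.147% of all peaks), and no call remained when any library was left out (0.122 to 0.346).

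For arsenite against mock in the cytoplasm, 5 of 42 tested member peaks were lower, all in the SLC38A2 3′UTR, against 0.52% of all peaks. They were chr12:46360460-46360480 (-2.42 ± 0.26), the proximal peak (-2.08 ± 0.15), chr12:46360389-46360409 (-1.88 ± 0.32), chr12:46360695-46360715 (-1.71 ± 0.30) and the distal peak (-0.93 ± 0.13). Without cytoplasmic mock replicates 1, 2 and 3 the counts were 3, 0 and 1, and without replicate 2 the adjusted p of the proximal peak was 0.245. The call of the distal peak was lost with edgeR on the authors' totals (-0.94, adjusted p = 0.0558) and with TMM (-0.53, 0.288), and without cytoplasmic mock replicate 2 (adjusted p = 0.245) or 3 (0.0743) or cytoplasmic arsenite replicate 2 (0.0501). In the nucleus 1 of 49 was higher, the distal peak (1.10 ± 0.14, adjusted p = 0.0092; 0.152% of all peaks). That call was lost without nuclear mock replicate 1 (adjusted p = 0.269) or nuclear arsenite replicate 1 (0.126) or 2 (0.135), and with edgeR and TMM factors (0.195).

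The balance between both main peaks differed between mock and arsenite libraries in both fractions. The distal peak held 39.4%, 35.5% and 35.8% of the tags of the pair in nuclear mock and 56.5%, 56.8% and 61.7% in nuclear arsenite libraries. In the cytoplasm it held 47.0%, 45.8% and 43.0% in mock and 64.7%, 65.7% and 64.5% in arsenite libraries. The means differed by 21.5 percentage points in the nucleus and 19.7 in the cytoplasm, where the largest SD of a group was 2.94. The groups did not overlap, and the exact permutation test gave p = 0.1 in each case, the smallest it can give. The pair was chosen after its values were seen. The 5′UTR share of SLC38A2 tags was 2.49% ± 0.39 in cytoplasmic mock and 9.45% ± 1.02 in cytoplasmic arsenite libraries, without overlap (exact permutation p = 0.1), and 12.8% ± 1.49 and 14.2% ± 1.45 in the nucleus, with overlap.

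**Figure D4:**
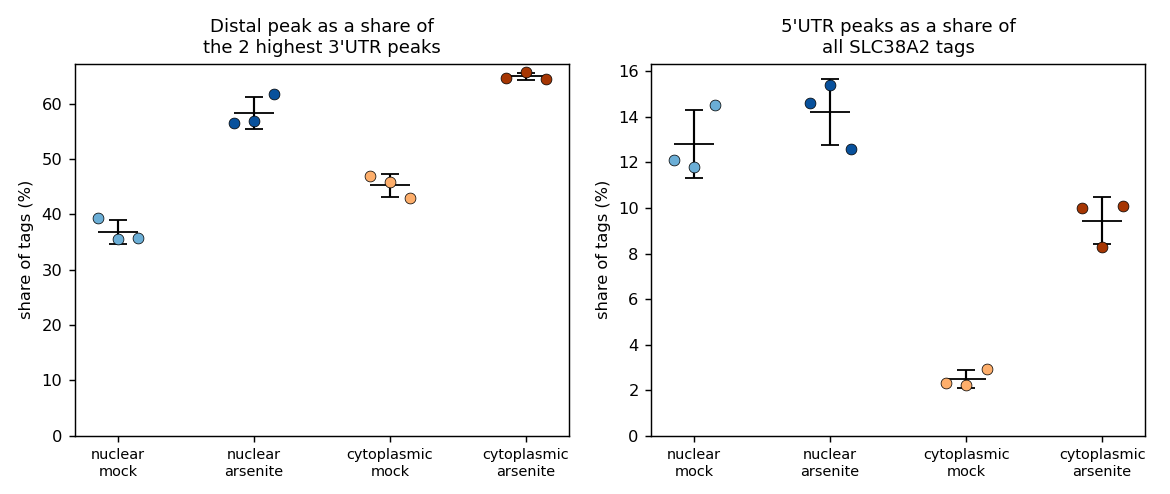
Shares of SLC38A2 tags in the 12 fraction libraries (points), with mean and SD (n = 3 per group). Left, the distal peak as a percentage of the tags of the 2 highest 3′UTR peaks, which is 35.5 to 39.4% in nuclear mock and 64.5 to 65.7% in cytoplasmic arsenite libraries; right, both 5′UTR peaks as a percentage of all SLC38A2 tags, lowest in cytoplasmic mock libraries.

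Other library sets give the distal share from fewer tags. In the input libraries, pooled over lines, it was 61.3% of 31 tags in mock and 31.7% of 460 in arsenite libraries of JL0361, 55.1% and 51.0% in JL0388, and 40.4% and 50.0% in JL1024. The share was therefore higher after arsenite in 1 of the 3 sets, unlike in the fractions. In enriched libraries it was 37.5% of 8 tags and 57.1% in JL0361, 52.6% of 19 and 72.1% in JL0388, and 41.4% and 42.6% in JL1024. The 5′UTR share in input libraries was 2.56% in mock and 12.3% in arsenite libraries of JL0361, 7.75% and 12.1% in JL0388, and 0.543% and 3.72% in JL1024, but the mock shares of JL0361 and JL1024 rest on 1 tag each (of 39 and 184). In enriched libraries it was 0 of 10 tags and 5.83% in JL0361, 7.5% and 14.1% in JL0388, and 5.05% and 2.63% in JL1024, so in the last it was lower after arsenite. These are shares of pooled tags, without a test.

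The interaction term asks whether the change with arsenite differed between the fractions. It passed for 2 of the 4 gene sums, SLC38A2 (1.75 ± 0.15, adjusted p = 4.52e-13) and SLC7A5 (0.87 ± 0.31, adjusted p = 0.0499), both positive, against 8.06% of all genes. A positive value means that the change was more upward in the nucleus than in the cytoplasm. SLC7A1 had the same size with a wider error (0.87 ± 0.43, adjusted p = 0.19), and SLC3A2 the opposite sign (-0.46 ± 0.42, adjusted p = 0.55). Among 3′UTR sums it passed for SLC38A2 (1.94 ± 0.15), SLC7A1 and SLC7A5 (1.34 ± 0.37, adjusted p = 0.0084), 3 of 4, where 24.2% of all 3′UTR sums were positive and past the threshold and their median was 0.63. At the peak level 4 of 62 passed, all SLC38A2 3′UTR peaks, against 0.318% of all peaks. The distal (2.03 ± 0.12) and proximal (1.95 ± 0.13) peaks were called in all 12 leave-outs. The other 2 were not: chr12:46360460-46360480 lost its call in 11 of 12, and also with the smaller pseudocount (adjusted p = 0.087), edgeR on the authors' totals (0.107) and TMM (0.18), and chr12:46360695-46360715 in 10 of 12, with the larger pseudocount (0.119) and scaled to tags in peaks (0.149).

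Leaving out a library ended several of these interaction calls. For the SLC7A5 gene sum that held without nuclear mock replicates 2 and 3, nuclear arsenite replicates 2 and 3, cytoplasmic mock replicates 2 and 3, and cytoplasmic arsenite replicates 1, 2 and 3, with adjusted p between 0.0562 and 0.171. For the SLC7A1 3′UTR it held without nuclear mock replicates 1 and 3, any nuclear arsenite replicate, cytoplasmic mock replicate 2, and cytoplasmic arsenite replicates 1 and 2, between 0.0544 and 0.132. The SLC7A5 3′UTR lost its call without nuclear arsenite replicates 2 and 3, cytoplasmic mock replicate 2 and cytoplasmic arsenite replicate 2, between 0.0655 and 0.071. The SLC7A5 gene sum also lost its call with the smaller pseudocount (adjusted p = 0.0587), scaled to tags in peaks (0.0575), with no filter (0.0547) and with repeated lines kept (0.0501). SLC38A2 kept its call in all of them, at the gene level and in the 3′UTR.

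Among 30 other amino acid transporters, 21 had a peak. In the mock fractions 18 were tested, 7 of them lower and 2 higher in the nucleus (18.3% and 13.8% of all genes), with a median log2 difference of -0.42 against 0.01 over all genes. The lower ones were led by SLC6A6, the taurine carrier (-2.03 ± 0.13), SLC6A14 (-1.70 ± 0.33) and SLC7A10 (-1.15 ± 0.33), and the higher ones were SLC38A10 (0.94 ± 0.33) and SLC38A6 (0.48 ± 0.16). With arsenite 5 of 19 were lower in the cytoplasm (9.91% of all genes) and 0 higher, with SLC6A6 (-1.79 ± 0.14), SLC6A14 (-1.75 ± 0.32) and SLC7A6 (-1.11 ± 0.30) first. By 3′UTR sums 7 of 14 were lower there (18.6% of all), with a median of -1.10 against -0.30 over all genes. In the nucleus limma called 0 of 19, with 2 at an unadjusted p under 0.05, where 5.57% of all genes were higher and 2.28% lower. The interaction was positive and passed for 2 of 20 (8.06% of all genes), SLC6A6 (1.82 ± 0.18) and SLC6A14 (1.51 ± 0.51).

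Of 12 other known miR-122 targets, 11 had a peak. In the mock fractions 3 of 10 were lower in the nucleus (18.3% of all genes), CCNG1, a cyclin (-2.82 ± 0.40), P4HA1, a collagen prolyl hydroxylase subunit (-1.80 ± 0.12), and ADAM17, a membrane protease (-1.67 ± 0.21). With arsenite 3 of 10 were lower in the cytoplasm, ADAM17 (-1.60 ± 0.17), AGPAT1 (-1.28 ± 0.38) and P4HA1 (-1.16 ± 0.12), and 2 were higher, SRF (1.34 ± 0.39) and TMED3 (0.78 ± 0.25), where 9.91% of all genes were lower and 10.2% higher. In the nucleus 1 of 11 was lower, P4HA1 (-0.51 ± 0.12), against 2.28% of all genes. The interaction was positive and called for 3 of 11, ADAM17, CCNG1 and P4HA1, against 8.06%. Of 14 genes of the amino acid response and mTORC1 sensing, 11 had a peak. RPTOR, a subunit of mTORC1 (0.96 ± 0.17), and MTOR (0.77 ± 0.26) were higher in the nucleus of mock cells, 2 of 9 tested (13.8% of all genes). With arsenite RPTOR rose (0.59 ± 0.17) and LAMTOR1 fell (-0.99 ± 0.33) in the cytoplasm, 1 of 10 each way (10.2% and 9.91% of all genes). The interaction was positive and passed for ATF4 (1.08 ± 0.34), the transcription factor of the amino acid response, 1 of 11 (8.06% of all genes). That call rests on 7 tags in 5 of the 12 fraction libraries, with 0 in nuclear mock and in cytoplasmic arsenite libraries.

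Across the 12 fraction libraries the 4 genes did not share a single profile. On log2 gene sums, Pearson's r was 0.80 between SLC7A5 and SLC38A2, 0.65 between SLC7A1 and SLC38A2 and 0.63 between SLC7A1 and SLC7A5, whereas SLC3A2 had r of -0.53 to -0.58 with the other genes. The points share libraries and groups, so these values are a description. Among 4964 genes with a mean of at least 10 tags per library, the profiles most like SLC38A2 were those of SLC25A20 (r = 0.99), KDM4C (0.98) and SCD (0.98). For SLC7A1 they were RIT1 (0.92), MARK2 (0.90) and HIPK3 (0.89), for SLC7A5 ATP13A3 (0.92), DAG1 (0.91) and HEXIM1 (0.91), and for SLC3A2 they included RBM26 (0.88) and TTC1 (0.86). The 99th percentile of r over the genes compared was 0.96 for SLC38A2 and 0.78 for SLC7A1.

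In the input libraries of the APEX lines, the fitted SLC38A2 level was higher after arsenite within each library set, but the fit over all sets did not call it. Its level was 65.6 and 151 CPM in APEX-NLS mock and 121 and 260 in arsenite libraries, 82.7 and 153 in APEX-NES mock and 122 and 331 in arsenite libraries. APEX-G3BP1 libraries ranged from 0 to 239 CPM in mock (n = 4) and from 176 to 318 in arsenite (n = 5). With library set and line as covariates the log2 difference was 1.59 ± 0.50 (limma fit across all genes, adjusted p = 0.46). Without APEX-G3BP1 mock replicate 1, a JL0361 library with 0 SLC38A2 tags, it was 0.70 (adjusted p = 0.77). Limma called 0 of 3 members and 0.0% of 7458 genes, with 1 member at an unadjusted p under 0.05. With edgeR on the authors' totals its quasi-likelihood test called 1 member, SLC38A2, and 5.63% of genes. With TMM factors edgeR did not call SLC38A2, and the number of genes called went from 420 to 179. Within sets the difference was 3.65 in JL0361 (adjusted p = 0.0067), which includes that library, 0.65 in JL0388 (0.00052) and 0.88 in JL1024 (0.78), where 0.129%, 2.74% and 0.0584% of all genes were called. The direction is opposite to that in the cytoplasmic fraction and the same as in the nuclear fraction (0.47 ± 0.09). Both fractions come from other cells and another library set. SLC7A5 (0.45 ± 0.53) and SLC3A2 (0.11 ± 0.29) were not called. SLC7A1 had 14 tags in the 17 input libraries, 11 in arsenite and 3 in mock libraries, and was not tested over all sets. Within sets its difference was -0.001 in JL0361 and 0.16 in JL0388, and neither was called. At the peak level 0 of 11 were called by limma (0.0% of all peaks), with 2 at an unadjusted p under 0.05 and 1 called by edgeR, against 1.61% of all peaks.

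**Figure D5:**
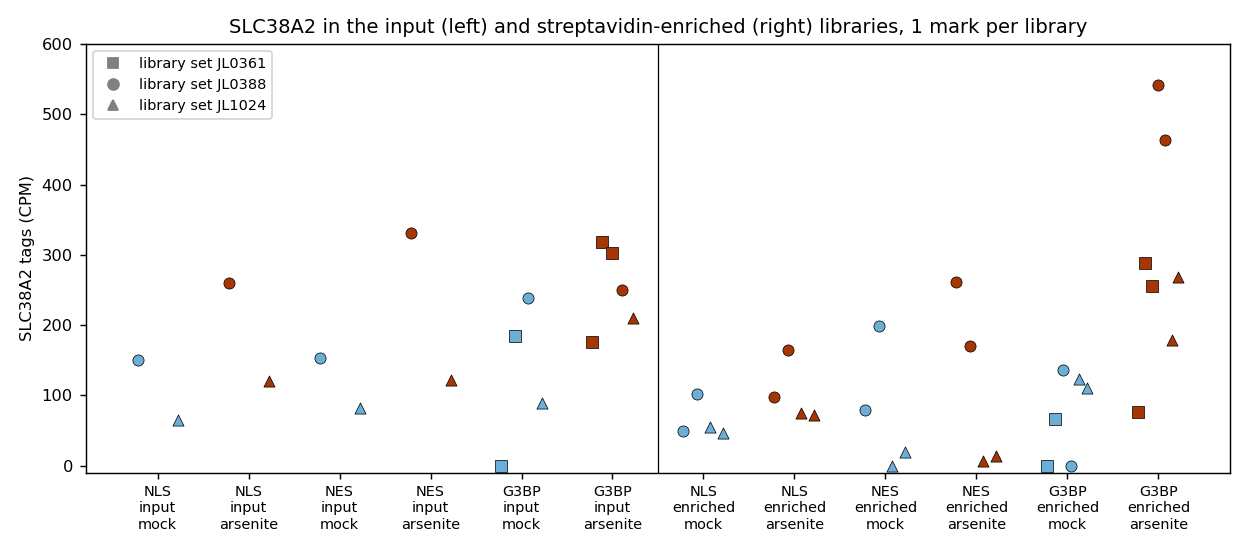
SLC38A2 tags (CPM, linear axis) in each input (left) and enriched (right) library of the 3 APEX lines; marks show the library set, blue is mock and red is arsenite. The enriched APEX-G3BP1 arsenite libraries reach 541 CPM, and the enriched APEX-NES libraries of JL1024 lie at 0 to 19.0 CPM, far below those of JL0388.

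In the enriched libraries SLC38A2 was the member with enough tags to compare. The APEX-G3BP1 arsenite libraries had 76.1, 269 and 541 CPM (lowest, median, highest) on 409 tags in all, and the APEX-G3BP1 mock libraries 0, 88.1 and 136 on 157 tags. APEX-NES arsenite libraries had 6.21, 92.4 and 261 on 34 tags and APEX-NES mock libraries 0, 49.1 and 199 on 15. APEX-NLS arsenite libraries had 72.6, 85.8 and 165 on 108 tags, and APEX-NLS mock libraries 46.1, 52.1 and 103 on 76. Pooled, the APEX-G3BP1 level was 283 CPM (95% Poisson interval 257 to 312) after arsenite and 108 (91.7 to 126) in mock, and the APEX-NES level 29.3 (20.3 to 40.9) and 48.7 (27.3 to 80.3). These intervals cover counting error alone and weight deep libraries most.

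After arsenite SLC38A2 was higher in the APEX-G3BP1 than in the APEX-NES enriched libraries, 1 of 2 members tested (2.73 ± 0.59, adjusted p = 0.0056), where 3.63% of genes were higher and the median over all genes was 0.98. By edgeR it was also 1 of 2, with 6.69% of genes called. The call depended on the scaling: the difference was 1.71 (adjusted p = 0.20) scaled to tags in peaks and 1.32 (adjusted p = 0.48) with TMM factors, under which the split of all calls went from 91 higher and 1 lower to 1 and 4 and to 0 and 42. It was also lost without APEX-G3BP1 arsenite replicate 5 (3.08, adjusted p = 0.125) or 7 (2.32, 0.153) and with agreeing pairs counted once (3.23, adjusted p = 0.11). Within sets it was 1.24 in JL0388 (adjusted p = 0.22) and 4.23 in JL1024 (0.019; 4.32% of genes were higher there). The median shift of all genes and the set differences move with this result, and their part in it was not tested. SLC7A5 was not called (-1.48 ± 1.10, adjusted p = 0.46), on 5 tags against 4.

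In the remaining enriched comparisons, limma over all library sets called no member gene or peak. In mock cells G3BP minus NES was 0.62 ± 1.44 for SLC38A2, 0 of 1 tested (0.0% of genes; 0 at an unadjusted p under 0.05 and 0 by edgeR, which called 0.351% of genes), with -2.85 within JL0388 and 4.09 within JL1024. NLS minus NES was 1.06 ± 0.83 in mock cells (0 of 1 tested, 18.1% of genes higher, all-gene median 1.09) and 0.98 ± 0.59 after arsenite (0 of 3, 6.6% higher, median 0.88). In both, 0 members had an unadjusted p under 0.05 and edgeR called 0, with 0.172% and 8.98% of genes called. Within JL0388 alone limma called 1 member for NLS against NES in mock cells, SLC7A5 (2.23, adjusted p = 0.0327), on 1 and 2 tags against 0 and 0. It passed the filter on non-zero libraries through the NLS group alone, so its direction was set by the filter and nothing is concluded from the call. In that fit 37.6% of 3951 genes were higher and the all-gene median was 1.75, and its 2 NLS libraries are one of the agreeing pairs, so they may be 1 sample. Within sets the SLC38A2 differences changed sign, from -0.80 in JL0388 to 2.92 in JL1024 in mock and from -0.73 to 2.68 after arsenite. Arsenite minus mock in APEX-G3BP1 was 3.23 ± 0.91 (adjusted p = 0.30; 0 of 2 called and 0.0% of genes by limma, 1 at an unadjusted p under 0.05, 1 by edgeR, which called 2.22% of genes). The edgeR difference was smaller, 1.47 (adjusted p = 0.0145), and with TMM factors it was 1.88 and not called. Leaving out 1 library gave 2.36 to 3.8 by limma, and the difference was positive within JL0361 (3.85), JL0388 (4.83) and JL1024 (0.90). None of these within-set values was called by limma (adjusted p = 0.50, 0.28 and 0.17). The all-gene median was 0.77 over all sets and 0.72, 3.31 and -0.47 within them. Within JL0388 44.8% of genes were higher, and its APEX-G3BP1 mock libraries held 2 and 0 SLC38A2 tags. Limma called 0 of 4 and 0 of 6 member peaks in the NLS comparisons, 0 of 2 and 0 of 5 in the G3BP comparisons with NES and 0 of 4 for arsenite in APEX-G3BP1, where it called 0.0%, 0.0%, 0.0%, 0.491% and 0.0% of all peaks. Of these, 0, 1, 0, 3 and 3 had an unadjusted p under 0.05, and edgeR called 0, 0, 0, 3 and 0, against 0.108%, 0.298%, 0.0%, 11.0% and 3.12% of all peaks.

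The other 3 genes were at the limit of detection after streptavidin capture. SLC7A1 had 4 tags in the 29 enriched libraries, 2 of them in APEX-G3BP1 arsenite and 0 in APEX-NLS arsenite, APEX-NLS mock and APEX-NES mock, where 3 tags over the group would be 2.58, 2.21 and 9.74 CPM. SLC7A5 had 24 tags in 15 of the libraries and SLC3A2 10 in 5. SLC7A1 was not tested between compartments. The tested differences of SLC7A5 and SLC3A2 after arsenite were not called, with wide intervals: NLS minus NES was -0.72 for SLC7A5 (95% interval -2.46 to 1.01) and 0.18 for SLC3A2 (-1.49 to 1.84), and G3BP minus NES was -1.48 for SLC7A5 (-3.67 to 0.72).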

How the data were processed

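The authors deposited a table with 1 line per HuR peak and 1 column per library. Per the submitters' processing notes the build is GRCh38.p14 and the tools include Bowtie2, SAMtools, bedtools and HOMER; versions and peak caller settings are not given in the sources used here. The deposited values are a signal, the tags in a peak divided by a library total; every value gave whole tags (100.0%, tolerance 0.01). The authors' score per peak and counts of libraries above 0, deposited in the same table, were used in no result, and how the score was made is not given in the sources used here. Of 395471 lines, 8257 repeats were dropped, and all peaks are 20 nt wide.

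Values were summed per gene and per gene and annotation class. The test was limma 3.58.1 (R 4.3.3) on log2(value + 2.28 CPM) with a trended variance, on features with a non-zero value in a number of libraries no lower than the size of the smaller group, with Benjamini-Hochberg adjustment over all features and a threshold of 0.05. Fold changes on this scale understate those of low features. The fraction fits had no covariates, input fits had library set and line, and enriched fits had library set. The scripts were tested on simulated data. Alternatives were edgeR 4.0.16 on the recovered tags, other pseudocounts, scalings and filters, repeated lines kept, a replicate block, each library left out, each set alone, and the 5 agreeing pairs of 32 counted once. The replicate pairs were compared by chi-square over the tags of their peaks.

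The peaks named are the highest of each gene and class and those called in the fractions (beyond 6 per gene and comparison, the 3 largest each way); from other gene lists at most 3 genes are named each way. Some genes that these rules select are not reported here. The members and lists were chosen with earlier results of these data known. Figures used matplotlib 3.10.9, and values were handled with pandas 2.3.3, numpy 2.4.6 and scipy 1.17.1.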

Additional observations from a re-analysis of the deposited data

Results flagged for a closer look

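In 1 of the 8 groups of 4 to 10 libraries examined, a library stood apart from the others by Dixon's test: the SLC38A2 level was 102.5 CPM in APEX-NLS enriched mock replicate 2, against 46.1 to 54.8 CPM in the other libraries of that group. Chance gives such a gap in about 1 in 20 groups.

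The change with arsenite differed between the nuclear and the cytoplasmic fraction by the interaction term for 2 gene sums, SLC38A2 (1.754) and SLC7A5 (0.8675). It differed for the 3′UTR sums of SLC38A2 (1.939), SLC7A1 (1.379) and SLC7A5 (1.337). The SLC7A1 call was lost with the smaller pseudocount (adjusted p = 0.0515) and with edgeR on the authors' totals (0.0516). It also differed for 4 SLC38A2 peaks, those starting at 46359070 (2.033), 46360460 (2.159), 46360695 (1.975) and 46360919 (1.954) on chromosome 12. All are log2 differences, nuclear change minus cytoplasmic change, with an adjusted p under 0.05 from limma. The calls at 46360460 and 46360695 were lost in 11 and 10 of the 12 fits that left out a library.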

How the results depend on the processing

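No called result changed sign. Over 1733 alternatives for single genes, class sums and peaks, 1510 kept direction and side of the threshold, 144 lost and 11 gained a call and in 68 a difference that was not called changed sign. The gene and 3′UTR sums of SLC38A2 stayed called in every alternative run for the mock fractions (gene -2.26 to -1.96), cytoplasmic arsenite (-1.41 to -1.21) and the interaction (1.65 to 1.88). In what follows counts are member calls, mostly without the share of all features called in the same fit, so they show stability alone. The cause of the changes was not tested. Member peaks in the mock fractions went from 8 to 5 with the stricter filter and with TMM, and in the arsenite fractions from 1 to 0 with the smaller pseudocount and with edgeR on either scaling. With the stricter filter, 3′UTR sums for cytoplasmic and nuclear arsenite went from 1 to 2 each, the SLC38A2 5′UTR sum was called in both, and nuclear arsenite peaks from 1 to 2, the last being 0 with TMM. Interaction genes went from 2 to 1 with the smaller pseudocount, tags in peaks, no filter or repeated lines kept. Input genes went from 0 to 1 with edgeR on the authors' totals, though not with TMM, and within JL0361 and JL0388, and input peaks from 0 to 1 with edgeR. NLS against NES gave 1 gene in mock within JL0388 and 1 peak after arsenite with the smaller pseudocount or tags in peaks, from 0. That gene, SLC7A5, passed the filter through the NLS libraries alone. G3BP against NES after arsenite went from 1 gene to 0 with tags in peaks, TMM, pairs counted once or JL0388 alone. Its peaks went from 0 to 1 with the larger pseudocount, no filter or the stricter filter and to 3 with edgeR, which on the authors' totals called 11.0% of all peaks. Arsenite in G3BP went from 0 to 1 gene with edgeR on the authors' totals, though not with TMM, and to 1 peak with no filter. With exonic peaks alone, the 3′UTR share of SLC3A2 differed by -33.8 points in the mock fractions and -43.3 for cytoplasmic arsenite, and that of SLC38A2 by -11.2 and -7.76. Its 5′UTR share differed by 7.76 for cytoplasmic arsenite, which is the same result, since its exonic peaks lie in the 3′UTR and 5′UTR alone. Leaving out 1 library, the ranges were, for genes, 1 to 2 (mock fractions, cytoplasmic arsenite, interaction) and 0 to 1 (arsenite fractions, nuclear arsenite, G3BP against NES after arsenite). For 3′UTR sums they were 2 to 3 (mock fractions), 1 to 2 (cytoplasmic arsenite) and 0 to 1 (nuclear arsenite, arsenite fractions). For peaks they were 0 to 8 (mock fractions), 0 to 7 (cytoplasmic arsenite), 0 to 1 (nuclear arsenite), 2 to 3 (interaction) and 0 in each fit (arsenite fractions). Same-numbered fraction libraries did not deviate together: 12 correlations over 2000 genes were -0.0996 to 0.133, with 2 over 0.1. With the replicate block the mock fractions had 2 genes, 7 peaks and 3 3′UTR sums, and cytoplasmic arsenite 6 peaks.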
